A study of Mus musculus with 6 samples.

Results

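The 10 genes described here encode fibronectin (Fn1), the fibulins Fbln1, Fbln2 and Fbln5, the microfibril protein fibrillin (Fbn1) and the matricellular glycoproteins Sparc, Postn, Tnc, Thbs1 and Thbs2. They were chosen by name, through every read whose deposited annotation equals one of these symbols. Of the 10, 9 had at least 1 read, among 14731 gene annotations in the series, and 7 had enough reads to be tested, among 11115 genes tested in all. The reads came from messenger RNA of Mvt1, a mammary carcinoma line of FVB/N mice that the labels class as mammary epithelial cancer cells. One line was stained for the surface protein CD24, sorted by flow cytometry into a group without surface CD24 (CD24-) and a group with it (CD24+), and RNA was taken from 3 plates of adherent cells per group, all grown in DMEM with serum. The labels name no edited gene and no drug in any of the 6 libraries. Since both groups come from a single line, and no source describes separate sorts, the spread between libraries covers plates at most and may be technical in part.

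Fibronectin is secreted as a dimer and pulled by cells into fibrils, on which collagens and fibulins are then deposited. Fibulins and fibrillin belong to the elastic fibre and microfibril system, which also stores latent TGF-beta. Matricellular proteins such as SPARC, periostin, tenascin-C and the thrombospondins build little structure themselves and instead modulate how cells adhere to, remodel and signal through the matrix. In the mammary gland these glycoproteins surround the epithelial ducts, and several of them are abundant in the stroma of carcinomas.

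Fn1 is the member whose transcripts are best known for alternative splicing, so the sequences of its regulated parts are given here. Every coordinate is from GENCODE M21 on GRCm38, and all sequences run 5′ to 3′ on the strand of the gene. The EDB exon (extra domain B, chr1:71613763-71614035, minus strand, 273 nt, in 1 of 7 full coding transcripts) and the EDA exon (extra domain A, chr1:71603660-71603929, minus strand, 270 nt, in 4 of 7) each add a fibronectin type III repeat. Capitals mark the 47-nt read with the most counts over the 6 libraries.
EDB: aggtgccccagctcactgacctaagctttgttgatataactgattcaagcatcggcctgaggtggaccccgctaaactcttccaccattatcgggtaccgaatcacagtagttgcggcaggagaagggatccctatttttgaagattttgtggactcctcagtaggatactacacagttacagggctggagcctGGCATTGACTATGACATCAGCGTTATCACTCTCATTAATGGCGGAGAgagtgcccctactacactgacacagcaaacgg
EDA: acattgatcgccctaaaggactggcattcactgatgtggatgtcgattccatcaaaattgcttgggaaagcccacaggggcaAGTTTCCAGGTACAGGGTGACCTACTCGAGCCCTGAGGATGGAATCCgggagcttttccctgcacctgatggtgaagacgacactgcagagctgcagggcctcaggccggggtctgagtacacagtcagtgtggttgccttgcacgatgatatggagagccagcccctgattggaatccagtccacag
The marked EDB read was counted 0 times in every CD24- library and 0, 5 and 4 times in CD24+ replicates 1, 2 and 3. The marked EDA read was counted 4, 2 and 1 times in the CD24- libraries and 6, 32 and 32 times in the CD24+ libraries. The next stretch (chr1:71606703-71606799, minus strand, coding exon 30, present in all coding transcripts) holds the codons of Arg-Gly-Asp, the motif that integrins bind, in capitals.
RGD: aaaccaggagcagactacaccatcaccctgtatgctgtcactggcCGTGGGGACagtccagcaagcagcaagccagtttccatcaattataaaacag
Reads that hold these 9 bases numbered 16, 14 and 8 in the CD24- libraries and 41, 192 and 209 in the CD24+ libraries. In counts-per-million of gene reads (CPM), that is 1.68, 1.33 and 0.902 against 6.45, 10.8 and 10.9, and the groups did not overlap. These reads are part of the Fn1 total described below, so they are not a separate result about the integrin-binding site. Fbln1 and Fbln2, the fibulins that moved in opposite directions, are shown by their most counted coding read, in capitals, with up to 30 bases of the same exon on each side (Fbln2, chr6:91233220-91233326, plus strand, and Fbln1, chr15:85244183-85244279, plus strand).
Fbln2: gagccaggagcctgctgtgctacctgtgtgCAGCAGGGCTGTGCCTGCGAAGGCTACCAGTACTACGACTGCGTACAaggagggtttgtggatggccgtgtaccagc
Fbln1: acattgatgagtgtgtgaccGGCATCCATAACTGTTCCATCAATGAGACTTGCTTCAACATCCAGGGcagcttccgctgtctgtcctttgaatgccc
The marked Fbln2 read was counted 0 times in all CD24- libraries and 4, 10 and 13 times in the CD24+ libraries. The marked Fbln1 read was counted 2, 6 and 5 times in the CD24- libraries and 0, 1 and 4 times in the CD24+ libraries, although CD24+ replicates 2 and 3 are the deepest libraries.

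The libraries held 9046025 to 25692147 mapped reads, of which 71.8% to 74.4% carried a gene annotation, and CD24+ replicate 1 was the shallowest. All CPM are scaled by TMM (a scaling between libraries that is robust to a few highly expressed genes). A count of 3 reads, the upper limit that a count of 0 allows, corresponds to 0.157 to 0.472 CPM, and this limit covers counting error only. Cd24a, the gene of the sorted marker, stood at 12.1, 11.5 and 6.99 CPM in CD24- and 73.3, 85.5 and 72.5 CPM in CD24+ (log2 fold change 2.91 ± 0.17 (SE), edgeR adjusted p = 5.38e-07). The epithelial keratin genes Krt8 and Krt18 were abundant, at 1229 and 732 CPM in CD24- and 596 and 213 CPM in CD24+, whereas the defining epithelial genes Epcam and Cdh1 and the basal keratin genes Krt5 and Krt14 were at or near 0 in every library. The summed CPM of 8 epithelial markers was 1847 to 2040 in CD24- and 759 to 902 in CD24+. The sum of 8 fibroblast markers was 9.13 to 16.01 in CD24- and 64.8 to 97.9 in CD24+. Pdgfra and Pdgfrb made up most of it in CD24- and Pdgfrb in CD24+, while Lum and Thy1 had no reads and Fap had 2. All 5 fibroblast markers tested were called higher in CD24+. Over all genes tested, 23.9% were called higher and 22.3% lower. Besides Pdgfra and Pdgfrb the markers called were Dcn (means of 0.067 CPM in CD24- and 2.05 CPM in CD24+), Col1a1 (0.974 and 3.19) and Col1a2 (0.570 and 1.58). Dcn did not exceed the limit of 3 reads in any CD24- library, so it passed the filter through CD24+. The sum of 7 leukocyte markers, almost all from Cd68, was 46.7 to 80.5 in CD24- and 6.94 to 9.44 in CD24+. Ptprc was at 0 in every CD24- library. The 2 leukocyte markers tested, Cd68 and Itgam, were both called lower in CD24+. Itgam stood at 3.79, 4.45 and 3.27 CPM in CD24- and at 0, 0 and 0.052 CPM in CD24+. It was within the limit of 3 reads in every CD24+ library and passed the filter through CD24-. The sum of 5 endothelial markers was 2.25 to 3.98 in CD24- and 0.681 to 1.89 in CD24+. Of the 2 tested, Cdh5 was called lower (means of 1.85 and 0.247 CPM) and Tek was not called. Cdh5 was likewise within the limit of 3 reads in every CD24+ library. Because the RNA is bulk, fewer cells of a type and less RNA per cell cannot be told apart, and the part of these marker shifts in the results that follow was not tested.

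All 7 tested members passed the test (adjusted p below 0.05), 5 higher and 2 lower in CD24+. Fn1, Fbln2, Fbn1, Thbs1 and Sparc rose, and Fbln1 and Tnc fell. Over all 11115 genes tested the test called 46.2%, of which 23.9% of genes were higher and 22.3% lower in CD24+, so calls were common in this comparison. The groups did not overlap for any of the 7, against 57.3% of all genes tested. Their median log2 fold change was 1.40, where all genes tested had a median of 0.02 and a 5th to 95th percentile range of -1.06 to 2.10. Together the members took 976 to 1038 CPM of a CD24- library and 2799 to 3422 CPM of a CD24+ library. Sparc supplied most member reads in CD24-, at 50.4% to 58.4%, and Fn1 took the leading place in CD24+, at 48.4% to 55.9%.

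**Figure D1:**
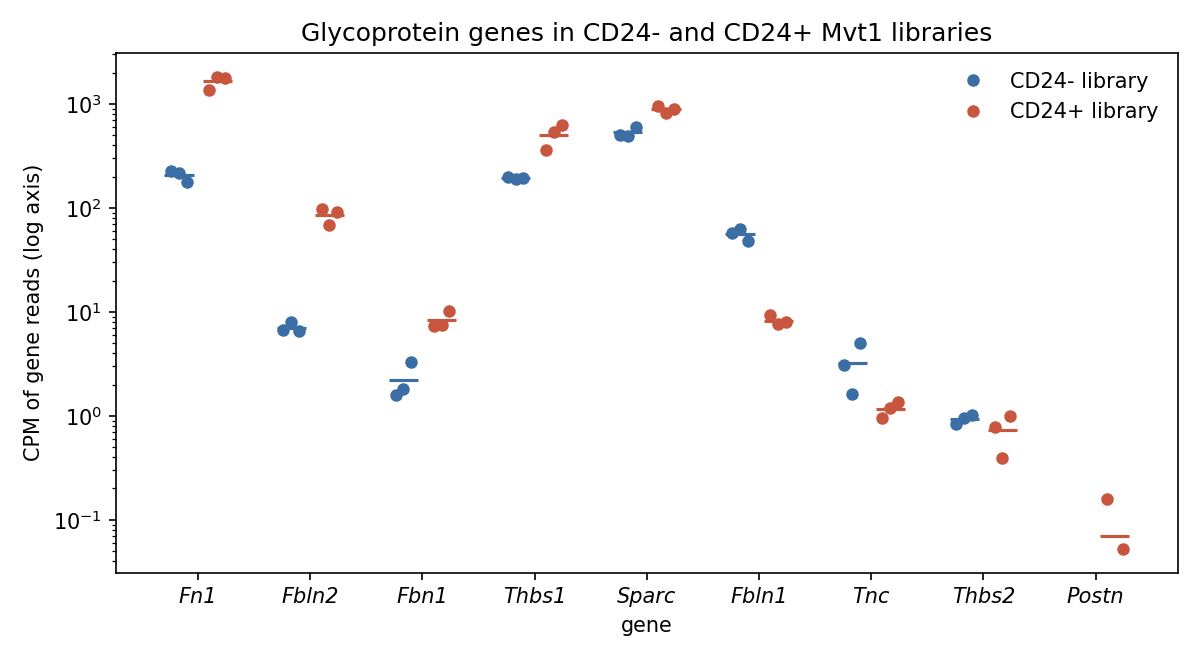
CPM of gene reads on a log axis for the 9 members with reads, 1 point per library and a bar at the group mean, in CD24- and CD24+. Libraries with 0 reads (all CD24- libraries and CD24+ replicate 2 for Postn) cannot be drawn on a log axis; the colours separate for all genes except Thbs2 and Postn.

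Fn1, the scaffold glycoprotein of the early matrix (chr1:71585520-71653200, minus strand), was read at 224, 219 and 176 CPM in CD24- replicates 1, 2 and 3. In CD24+ it stood at 1356, 1833 and 1790 CPM. The lowest CD24+ library was 6.05 times the highest CD24- library. The mean rose from 206 ± 26.6 to 1659 ± 264 CPM (SD, n = 3), a log2 fold change of 3.01 ± 0.14 (SE, 95% interval 2.69 to 3.33, edgeR adjusted p = 1.45e-07). The change ran along the whole coding sequence: in 42 of 42 constitutive exons with at least 20 start positions the groups did not overlap, and the log2 ratio of the exon means lay between 2.60 and 3.54. Of the Fn1 reads, 1.96% matched transcripts of more than 1 gene and are uncertain. The 5′ end of Fn1 overlaps a gene on the other strand, and the counts carry no strand.

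**Figure D2:**
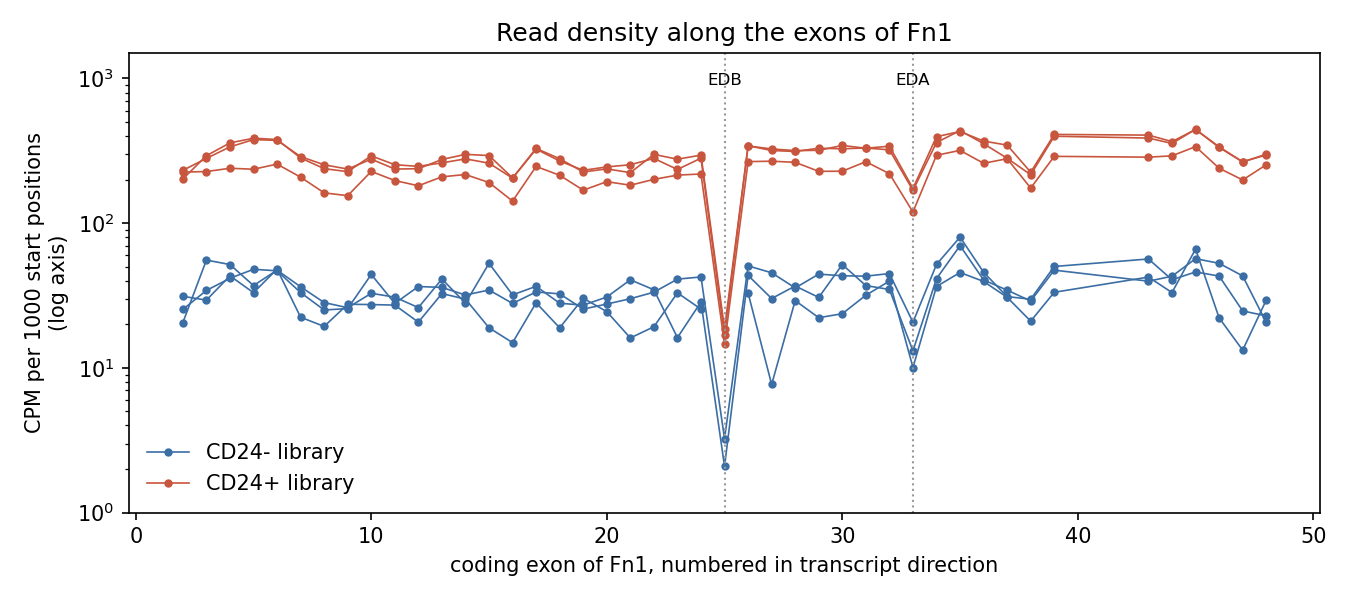
CPM per 1000 start positions, on a log axis, along the coding exons of Fn1, 1 line per library. Drawn are the constitutive exons with at least 20 start positions, EDB and EDA, but not the exon of the variable region. The CD24+ lines run above the CD24- lines at every exon drawn, and in both groups the lines dip at EDB and, less deeply, at EDA. CD24- replicate 3 had no EDB read and has no point there, and lines bridge exons that are not drawn.

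EDB was left out of most Fn1 RNA in both groups, and EDA was held by a larger share of it. Inclusion was measured as reads per start position within the exon, as a percentage of reads per start position within the 43 constitutive coding exons of Fn1. EDB had 7, 5 and 0 reads in the CD24- libraries, an inclusion of 8.70%, 5.69% and 0%, where a count of 0 allows up to 5.18% at 3 reads and the 2-sided 95% Poisson interval reaches 6.37%. In the CD24+ libraries it had 21, 75 and 73 reads, an inclusion of 6.48%, 6.18% and 5.70%. The CD24+ values lay inside the CD24- range, and the means of 4.80% ± 4.42 and 6.12% ± 0.39 (SD, n = 3) did not differ beyond the spread (exact permutation test, two-sided, p = 0.7, where 3 against 3 cannot go below 0.1).

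EDA had 44, 31 and 20 reads in CD24-, an inclusion of 55.4%, 35.8% and 35.0%. In CD24+ it had 170, 690 and 721 reads, an inclusion of 53.1%, 57.6% and 57.1%. CD24- replicate 1 lay within the CD24+ range and the other 2 CD24- libraries lay below it. The means were 42.1% ± 11.6 and 55.9% ± 2.43 (SD, n = 3), a difference of 13.9 percentage points (exact permutation test, two-sided, p = 0.2). The 95% Poisson intervals of the CD24- libraries ran from 40.3% to 74.4%, 24.3% to 50.8% and 21.4% to 54.1%, and cover counting error only. The permutation test cannot go below 0.1 with 3 libraries per group, so a difference was not resolved on this measure. Against the 2 neighbouring constitutive exons only, inclusion was 34.0% ± 7.46 and 46.2% ± 2.16, and the groups no longer overlapped (exact permutation test, p = 0.1, the smallest possible). With each distinct sequence counted once, EDB stood at 6.30% ± 5.76 and 17.3% ± 4.08 and EDA at 44.8% ± 10.8 and 74.8% ± 9.53 (exact permutation test, p = 0.1 for each), a scale on which abundant constitutive reads count less. The constitutive exons of Fn1 held 1108 to 1681 reads per CD24- library and 6202 to 24501 per CD24+ library, on 4343 start positions. This scale therefore treats the groups unequally, and its differences cannot be told apart from the number of Fn1 reads. Scaled to library depth, the read density of EDA was 20.7, 13.1 and 10.1 CPM per 1000 start positions in CD24- and 119, 174 and 169 in CD24+, so the groups did not overlap for EDA itself.

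**Figure D3:**
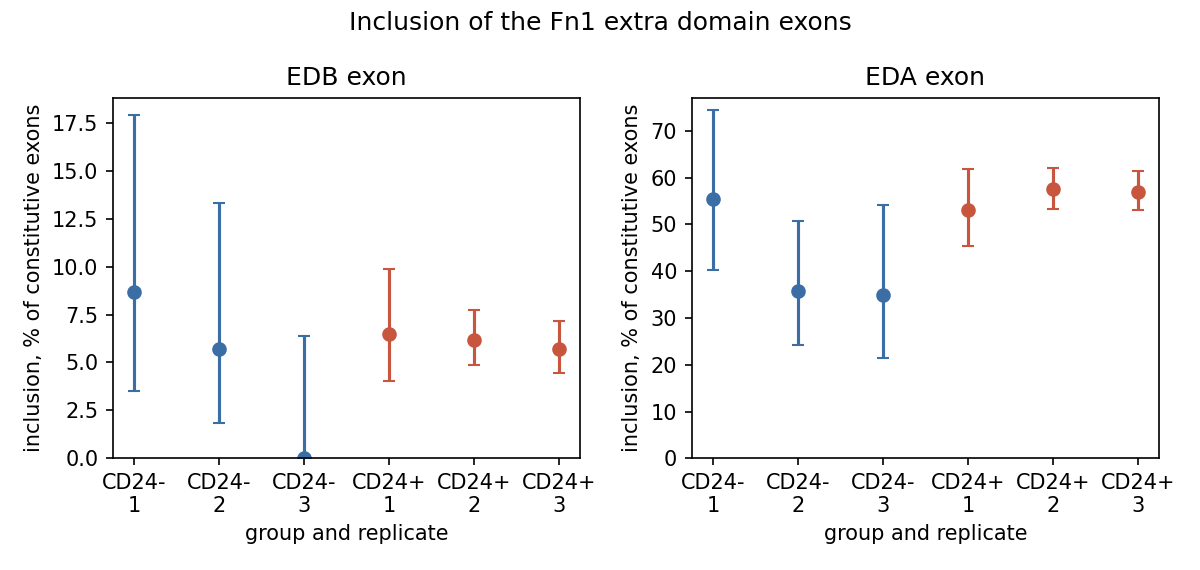
Inclusion of the EDB exon (left) and the EDA exon (right) of Fn1 in each library, as a percentage of the read density of constitutive exons, with 2-sided 95% Poisson intervals of the exon's count, which cover counting error only. The intervals of the CD24- libraries are wide because few reads fall in these exons, and CD24- replicate 1 sits at the CD24+ level for EDA, at 55.4%.

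The variable region of Fn1 lies in an exon whose 2 parts, of 75 nt and 285 nt, are held by 3 and 5 of 7 coding transcripts. These parts were examined after the exon counts had been seen. The 285-nt part had a read density of 113.8% ± 2.66 of the constitutive exons in CD24- and 117.3% ± 2.61 in CD24+ (exact permutation test, two-sided, p = 0.2). The 75-nt part stood at 94.5% ± 35.8 and 108.8% ± 7.33 (p = 0.5 in the same exact test), on 7 to 10 reads per CD24- library. Values above 100% are possible because read density varies from exon to exon. Of the alternative parts of Fn1, EDB had the lowest read density in both groups.

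Fbln2, a fibulin that binds fibronectin and links it to elastic fibres and basement membranes (chr6:91212455-91272540, plus strand), was read at 6.63, 7.96 and 6.54 CPM in CD24-. In CD24+ it stood at 97.2, 67.8 and 91.3 CPM. The lowest CD24+ library was 8.52 times the highest CD24- library. Its log2 fold change of 3.59 ± 0.16 (SE, 95% interval 3.22 to 3.95, edgeR adjusted p = 1.21e-07) was the highest value among the 10 genes, although its interval overlaps that of Fn1 and the order reverses under the median coverage estimate (0.99 for Fbln2 and 2.31 for Fn1). The groups did not overlap in 16 of 16 constitutive exons. The alternative coding exon 8 of Fbln2 (chr6:91259630-91259770, 141 nt, in 1 of 2 coding transcripts) had 0 reads in all 6 libraries, where the density of the constitutive exons would give 110.0 reads. A count of 0 allows an inclusion of up to 2.87% in CD24+, but of up to 52.7% in CD24-, where the constitutive exons held only 167 reads in all. Fbln2 had fewer than 100 constitutive reads in each CD24- library, so this exon is described without a test.

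Fbln1, a fibulin found in basement membranes and bound to fibronectin, laminin and nidogen (chr15:85205949-85286535, plus strand), went the other way. It was read at 57.7, 62.1 and 47.6 CPM in CD24- and at 9.28, 7.57 and 7.91 CPM in CD24+. The lowest CD24- library was 5.12 times the highest CD24+ library. The log2 fold change was -2.79 ± 0.14 (SE, 95% interval -3.09 to -2.48, edgeR adjusted p = 1.77e-07), and 13 of 13 constitutive exons were lower in CD24+ without overlap. The gene ends in alternative exons, a single one for the C form and 3 for the D form, which differ in the carboxy-terminal domain of the protein. Chosen after the exon counts had been seen and given with no test, reads in the C exon numbered 100 in CD24- and 27 in CD24+, and reads in the D exons 194 and 36. Relative to the constitutive exons of the same group, the read density was 31.4% for C and 68.1% for D in CD24-, and 39.3% and 58.5% in CD24+. Both forms were therefore present in both groups.

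Fbln5, a fibulin required for elastic fibre assembly, had no read in any library, and no fold change can be given. These fibulins had 3 different patterns in the same cells, with Fbln2 about 12.0-fold higher in CD24+, Fbln1 6.90-fold lower and Fbln5 not detected at this depth. Efemp2, a further fibulin from the list of elastic fibre partners, named after its values were seen, rose from 42.3 ± 5.22 to 110.0 ± 13.6 CPM (SD, n = 3, log2 fold change 1.37, edgeR adjusted p = 8.81e-06).

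**Figure D4:**
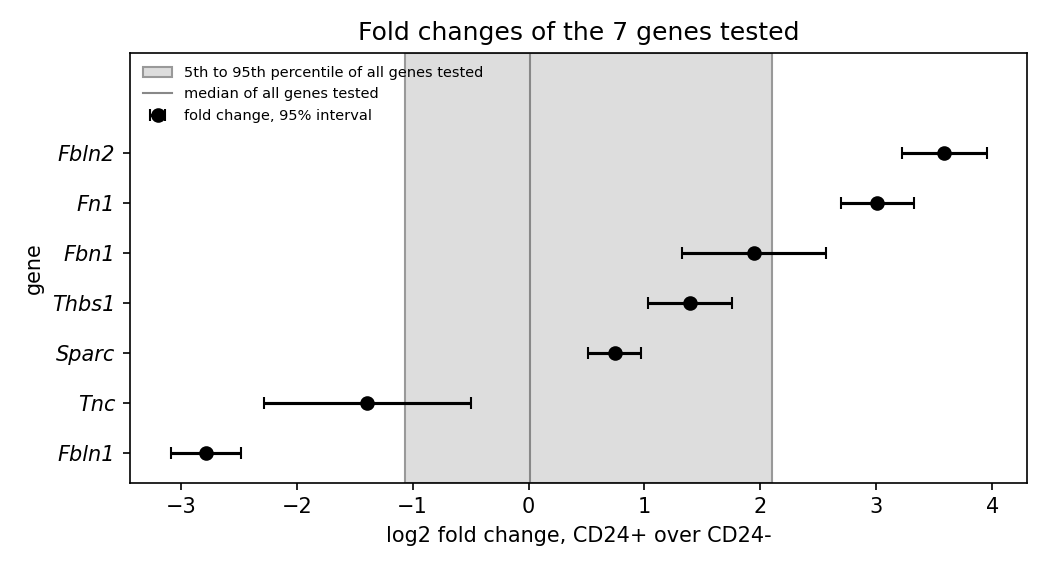
Log2 fold change, CD24+ over CD24-, with its 95% interval for the 7 members tested, beside the median and the 5th to 95th percentile range of all 11115 genes tested. Fbln2, Fn1 and Fbln1 lie outside the shaded range with their whole interval, Fbn1, Thbs1 and Sparc have their values inside it, and the interval of Tnc crosses its lower edge.

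Fbn1, the fibrillin that forms the core of microfibrils (chr2:125300594-125507993, minus strand), was a low gene in these cells. It was read at 1.58, 1.80 and 3.27 CPM in CD24- and at 7.39, 7.40 and 10.3 CPM in CD24+. The log2 fold change was 1.95 ± 0.28 (SE, 95% interval 1.32 to 2.57, edgeR adjusted p = 2.75e-04). On 63 reads in all CD24- libraries and 374 in all CD24+ libraries, 12 of 62 constitutive exons were higher in CD24+ without overlap, and the other 50 overlapped. No Fbn1 exon had more than 3 reads in any CD24- library, so the 12 exons without overlap also rest on counts within that limit. The increase is therefore seen for the gene as a whole, and single exons held too few reads to resolve it at this depth.

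Thbs1, a thrombospondin that activates latent TGF-beta and restrains angiogenesis (chr2:118111876-118127133, plus strand), was read at 200, 188 and 193 CPM in CD24-, where the libraries lay close together. In CD24+ the values were 362, 541 and 622 CPM, with replicate 1, the shallowest library, the lowest. The log2 fold change was 1.40 ± 0.16 (SE, 95% interval 1.03 to 1.76, edgeR adjusted p = 6.7e-05). Of 19 constitutive exons, 16 were higher in CD24+ without overlap. Thbs2, its close relative (chr17:14665500-14694235, minus strand), had 8, 10 and 9 reads in CD24- and 5, 7 and 19 reads in CD24+. At 0.842, 0.948 and 1.01 CPM against 0.787, 0.395 and 0.995 CPM the groups overlapped, and the gene had too few reads to be tested.

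Sparc, the collagen-binding and calcium-binding glycoprotein also called osteonectin (chr11:55394500-55423183, minus strand), was read at 502, 495 and 606 CPM in CD24- and at 965, 822 and 899 CPM in CD24+. The lowest CD24+ library was 1.36 times the highest CD24- library. The log2 fold change of 0.75 ± 0.10 (SE, 95% interval 0.52 to 0.97, edgeR adjusted p = 2.09e-04) was the smallest of the increases, and 6 of 6 constitutive exons were higher without overlap. When a read sequence was counted no more than once per library, the log2 fold change of Sparc was 0.12 and was not called (edgeR adjusted p = 0.669). The constitutive exons of Sparc held 1489 to 5395 reads per library on only 487 start positions, and the part this plays was not tested. Coding exon 2 of Sparc (chr11:55419788-55419855, 68 nt, in 2 of 5 coding transcripts) had an inclusion of 58.9% ± 5.11 in CD24- and 60.2% ± 7.07 in CD24+ (SD, n = 3, exact permutation test, two-sided, p = 0.9), with only 22 start positions.

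Tnc, the anti-adhesive glycoprotein tenascin-C (chr4:63959785-64047015, minus strand), was read at 3.05, 1.61 and 5.07 CPM in CD24- and at 0.944, 1.19 and 1.36 CPM in CD24+. The groups did not overlap, but CD24- replicate 2 was only 1.18 times the highest CD24+ library. The log2 fold change was -1.39 ± 0.40 (SE, 95% interval -2.28 to -0.50, edgeR adjusted p = 0.0165) on 91 reads in CD24- and 53 in CD24+. The call rests on CD24- replicate 3, the highest library: without it the log2 fold change was -0.92 and was not called (adjusted p = 0.0553). The alternative coding exon 14 of Tnc (273 nt, in 1 of 3 coding transcripts) had 0 reads, but over all 6 libraries a count of 0 here allows an inclusion of up to 58.5%, and within either group it sets no useful limit. Postn, the gene of periostin (chr3:54361109-54391037, plus strand), had 1 read in CD24+ replicate 1, 1 in CD24+ replicate 3 and none elsewhere, which is under the limit in every library.

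The order of the levels was compared per length, as CPM per 1000 start positions within constitutive coding exons. In CD24- Sparc led at 343.9 ± 42.0 (SD, n = 3), followed by Thbs1 at 45.5 ± 1.14, Fbln1 at 35.6 ± 5.36 and Fn1 at 34.2 ± 4.76. The ranges of Fbln1 and Fn1 overlapped, so these neighbours were not separated. Fbln2 came next at 2.06 ± 0.25, and Tnc, Fbn1 and Thbs2 followed at 0.494, 0.298 and 0.269, each overlapping its neighbour. In CD24+ the order was Sparc at 566 ± 47.8, Fn1 at 274 ± 42.9, Thbs1 at 117 ± 32.6, Fbln2 at 26.5 ± 4.87, Fbln1 at 5.50 ± 0.90 and Fbn1 at 1.19 ± 0.24, with no overlap between neighbours. Thbs2 at 0.245 and Tnc at 0.200 overlapped each other. Sparc led in both groups, while Fn1 passed Thbs1 and Fbln2 passed Fbln1 in CD24+.

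The partners of fibulins and fibrillin in elastic fibres and microfibrils moved in 1 direction. Of 19 genes listed, 7 had enough reads to be tested, and all 7 were called higher in CD24+ by edgeR and by DESeq2. The count was 6 when a read sequence counted once per library, where 2145 of 11071 genes were called higher. It was 5 at an absolute log2 fold change of at least 1, and 7 to 10 under the other alternatives. The list was written with earlier results of these data known, so it is described by counts and no list test was run. Their median log2 fold change was 2.31, against 0.02 for all genes tested, and the 7 of 7 called compare with 46.2% of all genes. Lox, the enzyme that crosslinks elastin and collagen, stood at 2.95, 3.60 and 4.06 CPM in CD24- and 35.4, 56.6 and 47.1 CPM in CD24+ (log2 fold change 3.73 ± 0.21 (SE), edgeR adjusted p = 3.98e-07). Emilin1, a glycoprotein at the interface of elastin and microfibrils, stood at 4.84, 5.31 and 2.03 CPM against 34.6, 28.1 and 43.5 CPM (3.10 ± 0.27 (SE), edgeR adjusted p = 8.54e-06). Ltbp4, which tethers latent TGF-beta to microfibrils, stood at 4.73, 5.78 and 2.48 CPM against 23.1, 16.5 and 29.5 CPM (2.39 ± 0.29 (SE), edgeR adjusted p = 8.12e-05). Elastin itself (Eln), Mfap5, Emilin3 and Hmcn2 had no reads in any library, and the microfibril genes Mfap2, Mfap4 and Fbn2 had at most 5 reads each over the 6 libraries.

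Of 27 matricellular and adhesive relatives, 14 were tested, of which 6 rose and 2 fell. Their median log2 fold change was 0.58. The test called 8 of 14, or 57.1%, against 46.2% of all genes tested, so the share was near that background. The 8 calls and the median include 2 genes, Fstl1 and Matn3, with at most 3 reads in any CD24- library. Fstl1, a secreted relative of SPARC, had 3, 1 and 0 reads in CD24- and 26, 57 and 78 reads in CD24+, and Matn3, a matrilin, had 1, 3 and 1 against 12, 30 and 41. Both were called higher, but their CD24- counts do not exceed the limit of 3 reads, so they passed the filter through CD24+ and no fold change is given. The stricter filter, of at least 5 CPM in at least 3 libraries, left 4 relatives called higher. Of the CCN genes, which encode matricellular proteins that bind integrins, Wisp1 (5.89 to 7.21 CPM in CD24- and 42.0 to 55.9 CPM in CD24+, log2 fold change 2.94) and Wisp2 (2.42 to 3.49 and 8.02 to 13.2 CPM, 1.84) rose, with edgeR adjusted p-values of 2.21e-07 and 1.67e-04. Nov fell from 17.9 to 23.0 CPM in CD24- to 5.97 to 8.02 CPM in CD24+ (log2 fold change -1.69, edgeR adjusted p = 1.58e-05). Cyr61 at 664 ± 34.0 and 652 ± 90.9 CPM (SD, n = 3) and Ctgf at 73.2 ± 17.3 and 90.4 ± 14.5 CPM were not called, with log2 fold changes of -0.03 and 0.32, and Wisp3 had no reads. Tnxb, a tenascin like Tnc, fell from 43.3 to 58.9 CPM to 20.04 to 27.1 CPM (log2 fold change -1.23, edgeR adjusted p = 7.25e-05). Of the other tenascins in the list, Tnr stood at 2.84 ± 0.21 and 4.01 ± 0.48 CPM (SD, n = 3) and was not called (log2 fold change 0.50, edgeR adjusted p = 0.0822), and Tnn had too few reads to be tested. Matn3, Cyr61, Ctgf and Spp1, the gene of osteopontin, were singled out after their values were seen. Spp1 rose from 843 ± 309 to 2940 ± 464 CPM (SD, n = 3, log2 fold change 1.80, edgeR adjusted p = 2.09e-04) and had the highest mean CPM of the relatives in each group, although Cyr61 exceeded it in CD24- replicate 3 and CPM is not corrected for length.

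Of 20 receptors and adhesion partners, 16 were tested, of which 8 rose and 3 fell. The test called 11 of 16, or 68.8%, against 46.2% of all genes tested, and the median log2 fold change was 0.30. The count of 8 fell to 3 when a read sequence counted once per library, to 6 with reads matching a single GENCODE gene, to 5 when these were also limited to coding sequence, to 4 with the median coverage estimate and to 3 at an absolute log2 fold change of at least 1. Over all genes, 2654 of 11115 were called higher in the main fit and 2145 of 11071 with each sequence counted once. With single-gene reads they were 2900 of 12116, when also coding 2223 of 10414, and with median coverage 1434 of 8744. One of the 8, Itgb8, had 0, 2 and 0 reads in CD24- against 7, 27 and 30 in CD24+ and passed the filter through CD24+. Itgb5, a subunit of a receptor for vitronectin, stood at 78.6, 72.5 and 50.3 CPM in CD24- and 162, 159 and 194 CPM in CD24+ (log2 fold change 1.36 ± 0.15 (SE), edgeR adjusted p = 4.86e-05). Itga8, the alpha subunit of an integrin that binds fibronectin and tenascin-C, stood at 18.8, 14.1 and 9.69 CPM against 53.3, 46.0 and 66.3 CPM (1.96 ± 0.21 (SE), edgeR adjusted p = 3.75e-05). Fermt2, the gene of the integrin activator kindlin-2, rose by a log2 fold change of 0.54. Itgb3 (-1.13), Itgav (-0.28) and the collagen receptor gene Ddr1 (-0.48) fell. For Itgb3 the groups overlapped, with 7.99, 8.62 and 3.83 CPM in CD24- and 3.93, 2.54 and 3.25 CPM in CD24+, and the count of 3 fell to 2 without CD24- replicate 1 or without CD24- replicate 2. The alpha subunit of the classical fibronectin receptor, Itga5, was not called at 144.8 ± 7.98 and 139.0 ± 12.6 CPM (SD, n = 3), and its partner Itgb1 rose by 0.34 on the log2 scale, from 931 ± 53.7 to 1181 ± 66.9 CPM. Itga5 and Itgb1 were singled out for this role, and Itgb8 after its values were seen. Both log2 fold changes lay below the 95% interval of Fn1, which began at 2.69, although this difference was not tested.

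**Figure D5:**
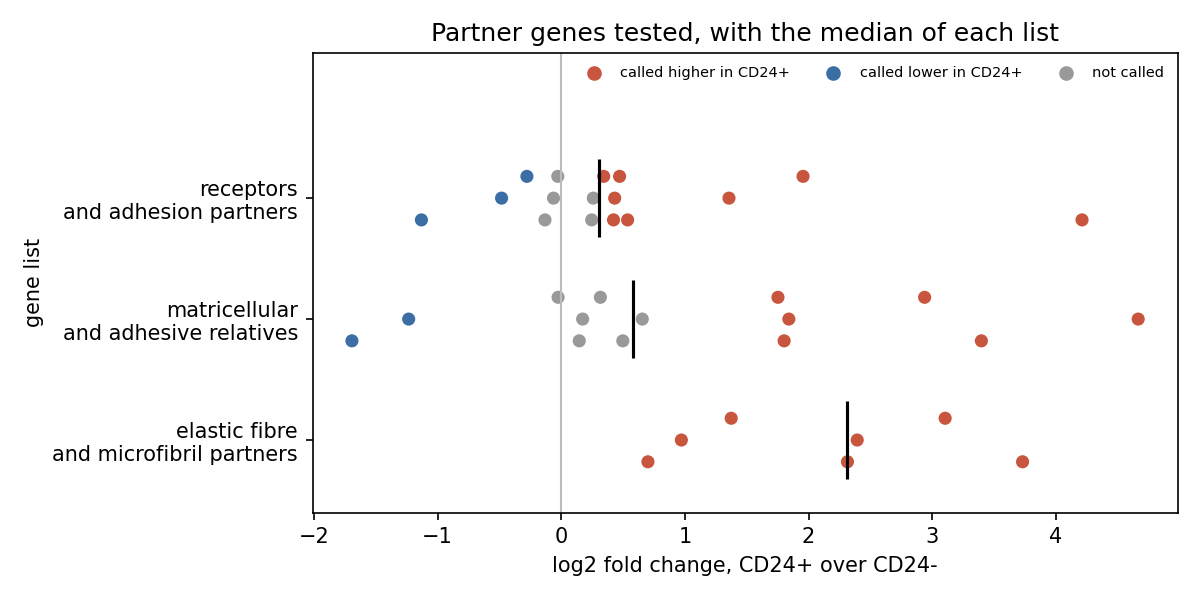
Log2 fold change, CD24+ over CD24-, of every partner gene tested, 1 point per gene, coloured by the call of the test, with a black bar at the median of each list (2.31, 0.58 and 0.30 from the bottom row up). All 7 points of the bottom row lie to the right of 0, and the upper rows hold genes on both sides. The points and medians include Fstl1 and Matn3 (middle row) and Itgb8 (top row), whose CD24- counts do not exceed 3 reads.

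Reads of the other partners in these lists were too few to be tested for 12 of 19, 13 of 27 and 4 of 20 genes. When a read sequence was counted only once per library, Fn1 had a log2 fold change of 1.80 and Thbs1 of 0.82, and both were still called. Leaving any 1 library out changed no call of Fn1, Fbln1, Fbln2, Fbn1, Thbs1 or Sparc. An estimate modelled on the study's methods used the median coverage of 1 GENCODE transcript per gene, quantile normalization and an added constant of 10. The study assigned reads by its own annotation, so these are not its values. The estimate gave smaller log2 fold changes for the 5 members it covered, among them 0.99 for Fbln2 and -0.49 for Fbln1, with all 5 directions and calls kept.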

How the data were processed

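Each of 6 plates of sorted Mvt1 cells, 3 per group, gave 1 mRNA library made with an unstranded kit. The authors trimmed reads to 47 nt, placed every distinct sequence on the genome (mm 9 in the submitters' processing notes) by exact match, with 1 location and 1 annotation per sequence. They deposited raw counts per sequence and library, not normalized and not pooled. For the mapping tool and the annotation, the entry is: not given in the sources used here. Exact matching loses reads across exon junctions and over variants.

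The deposited counts were summed per annotation. Genes passing filterByExpr were tested with edgeR 4.0.16 (TMM, quasi-likelihood F test, Benjamini-Hochberg adjustment over all genes, threshold 0.05) in R 4.3.3, after a check on simulated counts. Exon counts used reads lying wholly within a coding exon that match a single gene of GENCODE M21 (GRCm38). Inclusion was compared with an exact permutation test (scipy 1.17.1) where a gene had at least 100 constitutive reads in every library, and is otherwise described without a test. Sequences and coordinates come from GENCODE M21.

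The members and lists were chosen with earlier results of these data known. Named partners are the 3 largest increases and 3 largest decreases called per list at a mean log2 CPM of at least 1, except where stated. Alternatives were DESeq2 1.42.0, other scalings, filters and read sets, thinning, limma 3.58.1 on median coverage, a replicate block and each library left out. Replicate numbers were not used to pair the samples in the main fit, and each library was counted as 1 replicate. CD24- replicates 1 and 2 lay far closer together than other plates: their chi-square over its degrees of freedom was 1.71, against 9.34 to 15.3 for the other pairs within a group. Whether they share an RNA was not tested.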

Additional observations from a re-analysis of the deposited data

Results flagged for a closer look

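Of the reads that match Fbln2 transcripts only, 265 are annotated in the files to a SINE repeat (B1_Mur1) and were not counted for Fbln2. They stood at 0.388 ± 0.153 CPM in CD24- and 5.69 ± 0.743 CPM in CD24+ (SD, n = 3), with no overlap between groups. A further 10 such reads are annotated to an LTR element (RLTR13D3), at 0 in all CD24- libraries and a mean of 0.215 CPM in CD24+, below the limit that a count of 0 allows in CD24-. Both were singled out because a signal higher in CD24+ lies outside the reads summed for the gene, and neither difference was tested.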

How the results depend on the processing

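Of 115 alternative values for the 7 members, 112 kept the direction and the call. With each distinct sequence counted once, Sparc (log2 fold change 0.12, adjusted p = 0.669) and Tnc (-1.16, adjusted p = 0.0506) were not called; the cause was not tested. Leaving out a library moved Tnc between -1.73 and -0.92. Members called lower fell from 2 to 1 under that counting, the stricter filter, thinning and the median coverage estimate, the last 3 of which leave too few Tnc reads to test, and ranged from 1 to 2 with a library left out. The coverage estimate adds a constant, which shrinks low genes, and gave 1 relative called lower and 4 receptors and partners called higher. Receptors and partners called higher were 3 with distinct sequences, 6 with reads matching a single gene, 5 when these were also coding, and 3 at an absolute log2 fold change of at least 1, where 1 was lower. Calls over all genes tested also changed with the read set, as given above.

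The EDA difference, CD24+ minus CD24-, was positive under every alternative run, from 10.4 to 20.6 percentage points with a library left out. It was larger with distinct sequences, but that scale depends on the number of Fn1 reads, which differed between the groups. The differences of EDB, Sparc exon 2 and the 285-nt part of the variable region changed sign in at least 1 alternative. The EDB difference ran from -1.08 to 3.27 with a library left out, Sparc exon 2 from -2.59 to 4.27 and the 75-nt part of the variable region from 1.09 to 34.6. With distinct sequences Sparc exon 2 gave -1.05 and the 285-nt part of the Fn1 variable region -8.12. Same-numbered libraries did not deviate together (correlations 0.01, -0.25 and -0.31), so the numbers were treated as names. With 3 libraries per group, these correlations cannot decide whether same-numbered plates shared a batch. With the replicate block, 5 members were called higher and 2 lower, and the log2 fold changes of Fn1 and Tnc were 3.004 and -1.36. Depth limits Postn, Fbln5, Thbs2 and the alternative exons of Tnc.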
